A study of Mus musculus with 6 samples.

Results

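Glycerophospholipids, the main lipids of cell membranes, are built on a glycerol backbone. Acyltransferases add fatty acids in turn to make phosphatidic acid, lipins remove its phosphate to give diacylglycerol, and head group enzymes turn these precursors into phosphatidylcholine, phosphatidylethanolamine, phosphatidylserine, phosphatidylglycerol and cardiolipin. Phospholipases then cut fatty acids off the finished lipids and lysophospholipid acyltransferases put others back, a cycle of acyl remodelling that in macrophages also supplies arachidonic acid and platelet-activating factor. The genes described here are 40 enzymes of these steps, picked by their symbols out of the 40481 genes of the count table, and each symbol was found as 1 gene.

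The libraries came from unstimulated bone marrow-derived macrophages (BMDMs), which are mouse bone marrow cells cultured into macrophages for 5 to 6 days in medium with 10% CMG-conditioned medium and then kept with 2%. Poly(A)-selected RNA was sequenced from 3 samples of each genotype, wild-type (WT) and *Scd2-m/-m*, as 1 library per sample. In *Scd2-m/-m* mice a lysozyme M-Cre transgene, active in myeloid cells, deletes floxed alleles of *Scd2*, a stearoyl-CoA desaturase that makes monounsaturated fatty acids. No treatment was given to either genotype, and the comparison asks how loss of *Scd2* changes gene expression in resting macrophages.

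By the study's methods, male and female mice of 2 to 5 months were used. The sources used here do not say which mice gave these libraries, or whether the wild-type mice carried Cre or floxed alleles. All 6 libraries had the RNA pattern of females, with *Xist* between 658 and 842 CPM (counts scaled by library size) and no count on 3 Y-linked genes (*Ddx3y*, *Eif2s3y* and *Kdm5d*). Nothing in the labels says that the 3 libraries of a genotype came from separate mice or cultures, so the p-values measure the spread between these samples, which may be technical.

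CPM values use library sizes adjusted with TMM factors, edgeR's trimmed mean of M values. Changes are log2 fold changes of *Scd2-m/-m* over wild-type libraries with their standard error (SE). A gene was called at a false discovery rate (FDR) below 0.05 in the quasi-likelihood test of edgeR, after Benjamini-Hochberg adjustment over the 14778 genes tested. Of those genes 17.5% were called, 9.65% higher and 7.84% lower in *Scd2-m/-m* libraries, and 34.9% had libraries of the genotypes that did not overlap.

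Of the 40 genes, 38 passed the filter on low counts, and 9 of these were called. *Agpat2*, *Agpat3*, *Agpat5*, *Lpin2*, *Lpcat2*, *Pla2g15*, *Pla2g7* and *Abhd12* were lower in *Scd2-m/-m* BMDMs and *Mboat1* was higher. The 8 lower calls were 21.1% of the tested members, beside 7.84% of all genes, and the single higher call was 2.63%, beside 9.65%. The 9 calls together were 23.7% of the tested members, beside 17.5% of all genes. The median log2 fold change of the 38 was −0.0847, against 0.00387 over all tested genes. Members were chosen with earlier results of these data known, so these shares, and those given for single steps, only describe this list.

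Of the called genes, 4 belong to 1 family of acyltransferases that carry a histidine and an aspartate, set 4 residues apart, as a signature of the active site. That signature is given as read from the mouse coding sequence, because this family holds *Agpat2*, *Agpat3*, *Agpat5* and *Lpcat2*, the largest group of related genes among the calls. Each line is 39 bases of GRCm38 coding sequence, 5′ to 3′, with the codons of the histidine and the aspartate in capitals.
*Agpat2*: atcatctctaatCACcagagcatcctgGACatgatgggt
*Agpat3*: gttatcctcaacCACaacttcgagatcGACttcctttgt
*Agpat5*: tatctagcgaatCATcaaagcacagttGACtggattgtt
*Lpcat2*: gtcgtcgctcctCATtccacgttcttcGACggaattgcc

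In *Agpat2* the signature was at residues 98 to 103 of a protein of 278, on the minus strand, in a stretch that spans an intron (chr2:26596465-26597240). In *Agpat3* it was at residues 96 to 101 of 376, within exon 4 on the minus strand (chr10:78285031-78285069). In *Agpat5* it was at residues 93 to 98 of 365, on the plus strand, again across an intron (chr8:18861522-18868906). The *Lpcat2* signature was at residues 146 to 151 of 544, within exon 3 on the plus strand (chr8:92869760-92869798). The longest annotated protein of 11 members was searched for an asparagine or proline, a histidine, 4 residues of any kind and an aspartate. Exactly 1 match was found in each of *Agpat1*, *Agpat2*, *Agpat3*, *Agpat4*, *Agpat5*, *Lpcat1*, *Lpcat2*, *Lpcat4*, *Lclat1* and *Lpgat1*. None was found in *Gpam*, but the required first residue makes this pattern narrower than the signature, so *Gpam* may still carry it. The search does not separate the called genes from the others.

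The 250 bases before the transcription start of the family's called genes as RefSeq places it are shown as the upstream sequence of genes that were called lower. They come from RefSeq (GRCm38.p6), which has an entry for 34 of the 40 members, and *Agpat5* is not among them. Each runs 5′ to 3′ on the gene's strand. The search covered the GC box (GGGCGG), the CCAAT box (CCAAT), the E-box (CACGTG), the TATA box (TATAAA), a PU.1 site (GAGGAAGT) and a sterol response element (TCACNCCAC) on both strands, and matches are in capitals.
*Agpat2*: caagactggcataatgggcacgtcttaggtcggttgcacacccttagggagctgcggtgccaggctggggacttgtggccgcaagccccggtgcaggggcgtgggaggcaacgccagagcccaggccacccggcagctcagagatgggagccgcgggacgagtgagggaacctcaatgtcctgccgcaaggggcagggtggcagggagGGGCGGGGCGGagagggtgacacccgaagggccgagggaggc
*Agpat3*: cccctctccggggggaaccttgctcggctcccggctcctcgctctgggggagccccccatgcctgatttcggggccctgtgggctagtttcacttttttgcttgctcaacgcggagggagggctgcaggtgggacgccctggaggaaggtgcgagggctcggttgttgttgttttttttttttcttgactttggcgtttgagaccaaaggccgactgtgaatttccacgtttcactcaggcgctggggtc
*Lpcat2*: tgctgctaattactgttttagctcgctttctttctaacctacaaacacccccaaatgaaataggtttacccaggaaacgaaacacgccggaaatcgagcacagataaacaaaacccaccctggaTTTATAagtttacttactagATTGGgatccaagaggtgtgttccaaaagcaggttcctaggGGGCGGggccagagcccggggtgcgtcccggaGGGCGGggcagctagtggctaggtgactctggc

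The *Agpat2* window (chr2:26604418-26604667, minus strand) held 2 GC boxes that overlap by 1 base. The *Agpat3* window (chr10:78351701-78351950, minus strand) held none of the motifs. It lies before the RefSeq start but inside the gene as GENCODE gives it, since the GENCODE gene starts farther upstream. The *Lpcat2* window (chr8:92855083-92855332, plus strand) held 2 GC boxes, a CCAAT box and a TATA box, the last pair on the opposite strand. A GC box was in the window of 24 of the 34 matched members (70.6%) and in 32.7% of all 32851 RefSeq windows, which include non-coding genes and several starts of 1 gene. The CCAAT box was in 14 members (41.2%, all windows 33.8%), the E-box in 2 (5.88%, all 6.02%), the TATA box in 2 (5.88%, all 12.4%), the PU.1 site in 0 (all 2.44%) and the sterol response element in 1, *Pcyt1a* (2.94%, all 1.05%). These matches describe letters in a window and are not evidence of binding.

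Total counts per library were between 46285176 and 57629638, with TMM factors from 0.979 to 1.02. *Scd2* itself had 66.9, 77.8 and 62.7 CPM in wild-type replicates 1 to 3, against 59.5, 38 and 39.8 CPM in *Scd2-m/-m* replicates 1 to 3. No *Scd2-m/-m* library reached the lowest wild-type value, with a log2 fold change of −0.59 (SE 0.19, FDR = 0.10, edgeR) that did not pass the threshold. Without *Scd2-m/-m* replicate 1, the library nearest to wild type, it was −0.83 (FDR = 8.87e-05, edgeR). The sources used here do not name the deleted exons, so reads from the rest of the transcript may count, which was not tested. By quantitative PCR the study reported a deeper fall of the *Scd2* transcript in *Scd2-m/-m* macrophages. Summed macrophage markers ran from 38400 to 39600 CPM in wild-type, against from 22500 to 23400 CPM in *Scd2-m/-m* libraries (4 of 10 called lower, 1 higher), and 1 gene, *Lyz2*, into which lysozyme M-Cre is inserted, fell from 22800 to 9030 CPM. Without *Lyz2* the sums were 16300 to 16400 and 13800 to 14400 CPM.

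All 12 cell division genes were higher in *Scd2-m/-m* libraries, with sums of 53.5 to 62.5 CPM in wild-type, against 159 to 180 CPM in *Scd2-m/-m* libraries. Progenitor markers summed to 6.85 to 12.8 against 46.3 to 52.4 CPM (3 of 5 tested called, all higher). Most of that sum was 1 gene, *Ly6a*, with means of 7.73 and 43.8 CPM. By sign 4 of the 5 were higher, and *Cd34* was lower (log2 fold change −0.50, FDR = 0.57, edgeR). Neutrophil markers summed to 11.0 to 11.9 against 25.7 to 33.5 CPM (5 of 7, all higher). B cell markers summed to 2.18 to 3.79 against 5.37 to 7.24 CPM (2 of 3, both higher). Dendritic cell markers summed to 0.947 to 1.48 against 1.83 to 2.99 CPM (2 of 5, both higher). Erythroid and megakaryocyte markers summed to 52.4 to 61.6 against 41.5 to 43.3 CPM, most of it *Pf4*, with means of 54.3 and 40.8 CPM. Stromal markers summed to 2.72 to 4.47 against 3.27 to 3.42 CPM. Mast cell and basophil markers summed to 0.217 to 0.453 against 0.555 to 1.07 CPM. T and NK cell markers stayed at 0.26 CPM or less in every library, with *Ncr1* at 0 in all 6. Most of these lists moved with genotype, and their part in the calls given here was not tested. In bulk RNA, fewer cells of a type and less RNA per cell cannot be told apart.

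Per kilobase of exon, *Abhd12* was the most abundant of the 40 enzymes in wild-type BMDMs, at 177 CPM per kb, followed by *Pla2g15* at 80.6, *Pla2g7* at 52.6, *Agpat1* at 51.1 and *Lpcat2* at 32.7. These are 3 hydrolases, a lysophosphatidic acid acyltransferase and the enzyme that makes platelet-activating factor in inflammatory cells. Of these 5 genes, 4 were among the calls, and *Agpat1* was not. At the other end were *Dgat2* at 0.256 and *Pemt*, the liver enzyme that methylates phosphatidylethanolamine, at 0.644 CPM per kb. *Lpin3*, another lipin, had 2 counts in *Scd2-m/-m* replicate 2 and 0 in the other 5 libraries, and *Mboat2*, an acyltransferase of lysophosphatidylethanolamine, had 0 to 4 counts. In these libraries 3 counts correspond to 0.0516 to 0.065 CPM, so neither gene was tested.

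**Figure D1:**
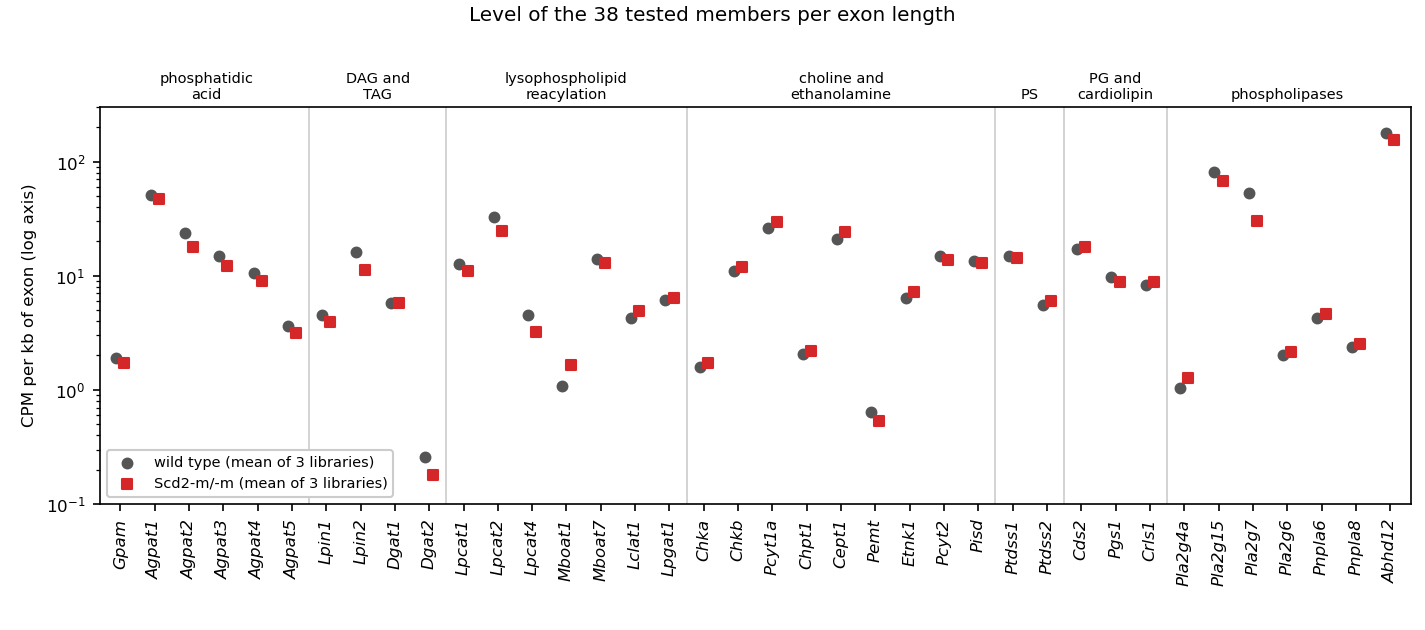
Mean level of each of the 38 tested enzymes in wild-type and *Scd2-m/-m* BMDMs (3 libraries each), in CPM per kb of exon on a log axis, grouped by step of the pathway. Levels ran from 0.256 for *Dgat2* to 177 for *Abhd12* in wild-type BMDMs, and for most genes the difference between genotypes is small beside the differences between genes.

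All 6 members of phosphatidic acid synthesis were lower in *Scd2-m/-m* libraries by sign, and 3 of the 6 were called (50%, beside 7.84% of all genes). These are *Agpat2*, *Agpat3* and *Agpat5*, members of the family that adds the second fatty acid to lysophosphatidic acid. The median log2 fold change of the 6 was −0.22, and each kept a negative sign in every alternative setting.

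*Agpat2* (ENSMUSG00000026922, chr2:26593057-26604417), a lysophosphatidic acid acyltransferase of the endoplasmic reticulum whose loss causes lipodystrophy, had 54.4, 49.2 and 48.3 CPM in wild-type replicates 1 to 3, against 39.6, 36.9 and 37.2 CPM in *Scd2-m/-m* replicates 1 to 3. The lowest wild-type library exceeded the highest *Scd2-m/-m* library. The mean fell from 50.6 ± 3.31 to 37.9 ± 1.48 CPM (SD, n = 3), which is 74.9% of the wild-type level, with a log2 fold change of −0.42 (SE 0.0672, FDR = 0.00071, edgeR). It was called with any 1 library left out, at an FDR of at most 0.0109 (edgeR).

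*Agpat3* (ENSMUSG00000001211, chr10:78269178-78352489), which acts on lysophosphatidic acid and on lysophosphatidylinositol, had 109, 116 and 123 CPM in wild-type, against 95.0, 95.3 and 94.7 CPM in *Scd2-m/-m* replicates 1 to 3. The *Scd2-m/-m* libraries were nearly equal and all below the wild-type libraries. The means were 116 ± 6.89 and 95.0 ± 0.303 CPM (SD, n = 3), for a log2 fold change of −0.29 (SE 0.0599, FDR = 0.00398, edgeR). *Agpat3* too was called with any 1 library left out, with FDRs up to 0.0316 (edgeR).

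*Agpat5* (ENSMUSG00000031467, chr8:18846277-18891361), a mitochondrial member of the family, had 41.5, 38.6 and 36.4 CPM in wild-type, against 32.8, 33.4 and 34.6 CPM in *Scd2-m/-m* replicates 1 to 3. The libraries did not overlap, and the mean fell from 38.8 ± 2.57 to 33.6 ± 0.918 CPM (SD, n = 3). The log2 fold change was −0.21 (SE 0.0674, FDR = 0.0487, edgeR), just inside the threshold, and the call held in only 5 of 16 alternative settings. It was lost without wild-type replicate 1 (FDR = 0.17, edgeR), wild-type replicate 2 (FDR = 0.142), *Scd2-m/-m* replicate 1 (FDR = 0.0978), replicate 2 (FDR = 0.169) or replicate 3 (FDR = 0.0568).

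The other genes of this step did not pass the test. *Agpat4*, a brain-enriched member of the family, had 32.2, 26.9 and 26.5 CPM in wild-type, against 26.1, 24.6 and 22.3 CPM in *Scd2-m/-m* replicates 1 to 3, so that the genotypes did not overlap but wild-type replicate 3 and *Scd2-m/-m* replicate 1 lay close together. Its log2 fold change was −0.23 (SE 0.0868, FDR = 0.0847, edgeR). The log2 fold change was −0.15 for *Gpam* (FDR = 0.282, edgeR), the mitochondrial glycerol-3-phosphate acyltransferase that opens the pathway, and −0.13 for *Agpat1* (FDR = 0.309, edgeR), with overlapping libraries for both. No gene of this step was higher at an unadjusted p below 0.05, and none was called higher by edgeR, DESeq2 or limma-voom.

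**Figure D2:**
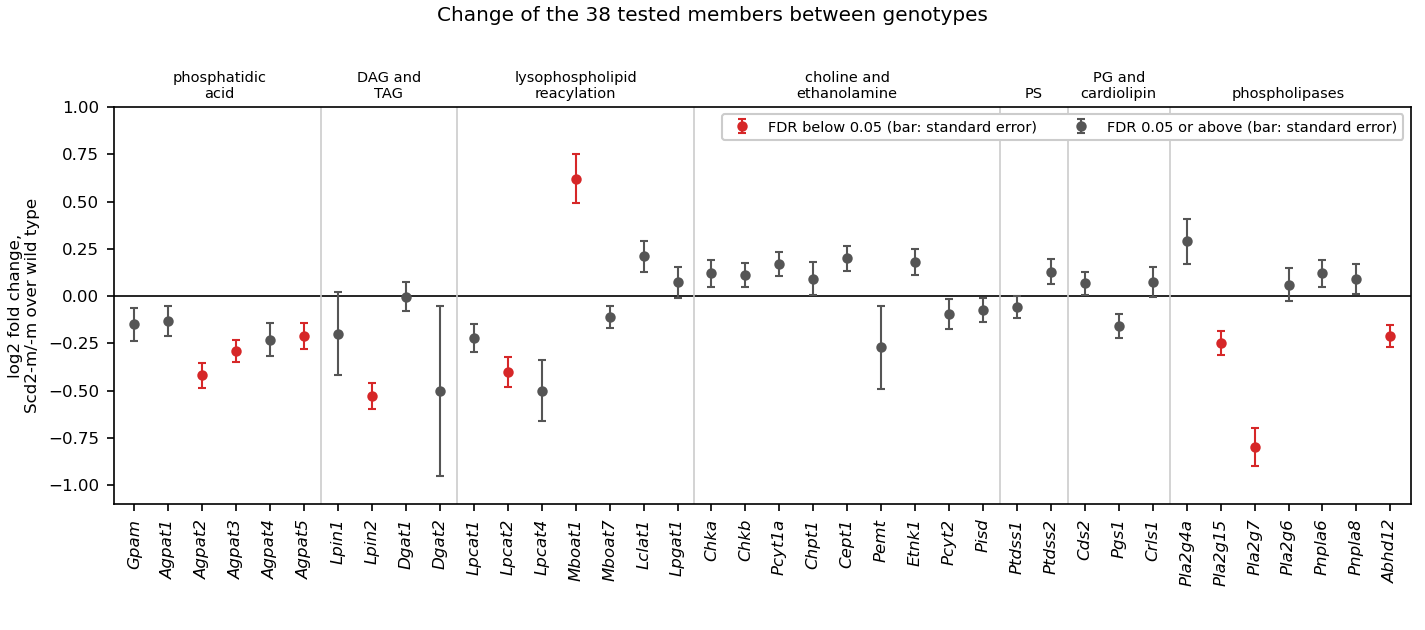
Log2 fold change (*Scd2-m/-m* over wild type) of the 38 tested enzymes with the standard error of edgeR's fit as bars, grouped by step of the pathway, with calls at an FDR below 0.05 in red. All 6 members of phosphatidic acid synthesis lie below 0. The 9 choline and ethanolamine genes lie from −0.27 to 0.20, with 6 above 0. *Pla2g7* (−0.80) and *Mboat1* (0.62) lie farthest from 0.

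Of the 4 tested genes that turn phosphatidic acid into diacylglycerol and triacylglycerol, *Lpin2* alone was called (25%, beside 17.5% of all genes). *Lpin2* (ENSMUSG00000024052, chr17:71182560-71249817) encodes lipin-2, a phosphatidate phosphatase whose loss causes an autoinflammatory bone disease in people. It had 183, 203 and 208 CPM in wild-type, against 130, 134 and 147 CPM in *Scd2-m/-m* replicates 1 to 3. The highest *Scd2-m/-m* library was well under the lowest wild-type library. The mean fell from 198 ± 13.2 to 137 ± 8.92 CPM (SD, n = 3), 69.1% of its level in wild type, with a log2 fold change of −0.53 (SE 0.0679, FDR = 0.000111, edgeR), and it was called with any 1 library left out.

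*Lpin1*, encoding lipin-1, had a log2 fold change of −0.20 with an SE of 0.22 (FDR = 0.611, edgeR). Its sign turned to 0.031 without wild-type replicate 3, so no direction can be given for it. *Dgat1*, which adds the last fatty acid of triacylglycerol, had a log2 fold change of −0.00434 (SE 0.0771, FDR = 0.981, edgeR), and its sign varied with the scaling. *Dgat2*, the other diacylglycerol acyltransferase, was barely detected, with 0.242, 1.06 and 1.06 CPM in wild-type, against 0.502, 0.676 and 0.499 CPM in *Scd2-m/-m* replicates 1 to 3. Wild-type replicate 1 had the lowest value of all 6, the genotypes overlapped, and the log2 fold change of −0.50 (SE 0.45, FDR = 0.496, edgeR) was not distinguishable from 0 at this depth.

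Among the 7 tested enzymes that reattach fatty acids to lysophospholipids, 2 were called (28.6%, beside 17.5% of all genes), *Lpcat2* lower and *Mboat1* higher. *Lpcat2* (ENSMUSG00000033192, chr8:92855339-92919279) encodes the inducible acyltransferase of inflammatory cells that makes phosphatidylcholine and platelet-activating factor. It had 118, 110 and 104 CPM in wild-type, against 73.8, 86.3 and 91.9 CPM in *Scd2-m/-m* replicates 1 to 3. Although the libraries of each genotype were spread, they did not overlap. The mean fell from 111 ± 7.22 to 84.0 ± 9.23 CPM (SD, n = 3), for a log2 fold change of −0.40 (SE 0.0793, FDR = 0.00329, edgeR), and the FDR was at most 0.0211 with any 1 library left out.

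*Mboat1* (ENSMUSG00000038732, chr13:30136489-30246717), which esterifies lysophosphatidylserine and lysophosphatidylethanolamine with unsaturated fatty acids such as oleate, was the only called member that was higher. It had 3.63, 3.75 and 4.43 CPM in wild-type, against 5.77, 6.57 and 5.87 CPM in *Scd2-m/-m* replicates 1 to 3, with no overlap. The counts behind these values were between 173 and 341 per library. The mean rose from 3.93 ± 0.431 to 6.07 ± 0.434 CPM (SD, n = 3), 154% of its level in wild type, with a log2 fold change of 0.62 (SE 0.13, FDR = 0.00419, edgeR) that stayed between 0.56 and 0.72 with 1 library left out, at an FDR of at most 0.0353. Despite the rise, *Mboat1* remained a low gene, at 1.08 CPM per kb in wild-type BMDMs against 14.1 for *Mboat7*.

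A pair of uncalled genes of this step came close to the threshold, both lower by sign. *Lpcat4*, an acyltransferase that favours lysophosphatidylethanolamine, had 15.6, 12.4 and 10.2 CPM in wild-type, against 10.7, 8.69 and 7.74 CPM in *Scd2-m/-m* replicates 1 to 3. Wild-type replicate 3 fell below *Scd2-m/-m* replicate 1, so the genotypes overlapped. The log2 fold change was −0.50 (SE 0.16, FDR = 0.0543, edgeR). It passed the threshold in 6 of 16 alternative settings, among them without wild-type replicate 3 (FDR = 0.00603), without *Scd2-m/-m* replicate 1 (FDR = 0.026) and with DESeq2 (FDR = 0.00884), and with the other left-out libraries the FDR reached 0.203.

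*Lpcat1*, the lung surfactant acyltransferase that is also expressed in macrophages, had a log2 fold change of −0.22 (SE 0.0732, FDR = 0.0515, edgeR) with libraries that did not overlap, from 53.0 to 64.7 CPM in wild-type, against from 49.1 to 51.5 CPM in *Scd2-m/-m*. It was called in 6 of 16 alternative settings, among them without wild-type replicate 1 (FDR = 0.0103, edgeR) and with DESeq2 (FDR = 0.0395), and its FDR reached 0.206 with another library left out. *Mboat7*, the arachidonate-specific enzyme of lysophosphatidylinositol, was at −0.11 (FDR = 0.224, edgeR), *Lclat1*, which acts on cardiolipin and phosphatidylinositol, at 0.21 (FDR = 0.109, edgeR) and *Lpgat1*, which acts on lysophosphatidylglycerol and lysophosphatidylethanolamine, at 0.0732 (FDR = 0.603, edgeR). The exons of *Mboat7* overlap those of *Tsen34* on the opposite strand, which had 44.0 CPM in wild-type, against 38.6 CPM in *Scd2-m/-m* libraries, and since the use of strand in counting is not given, reads of these genes may not be told apart.

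**Figure D3:**
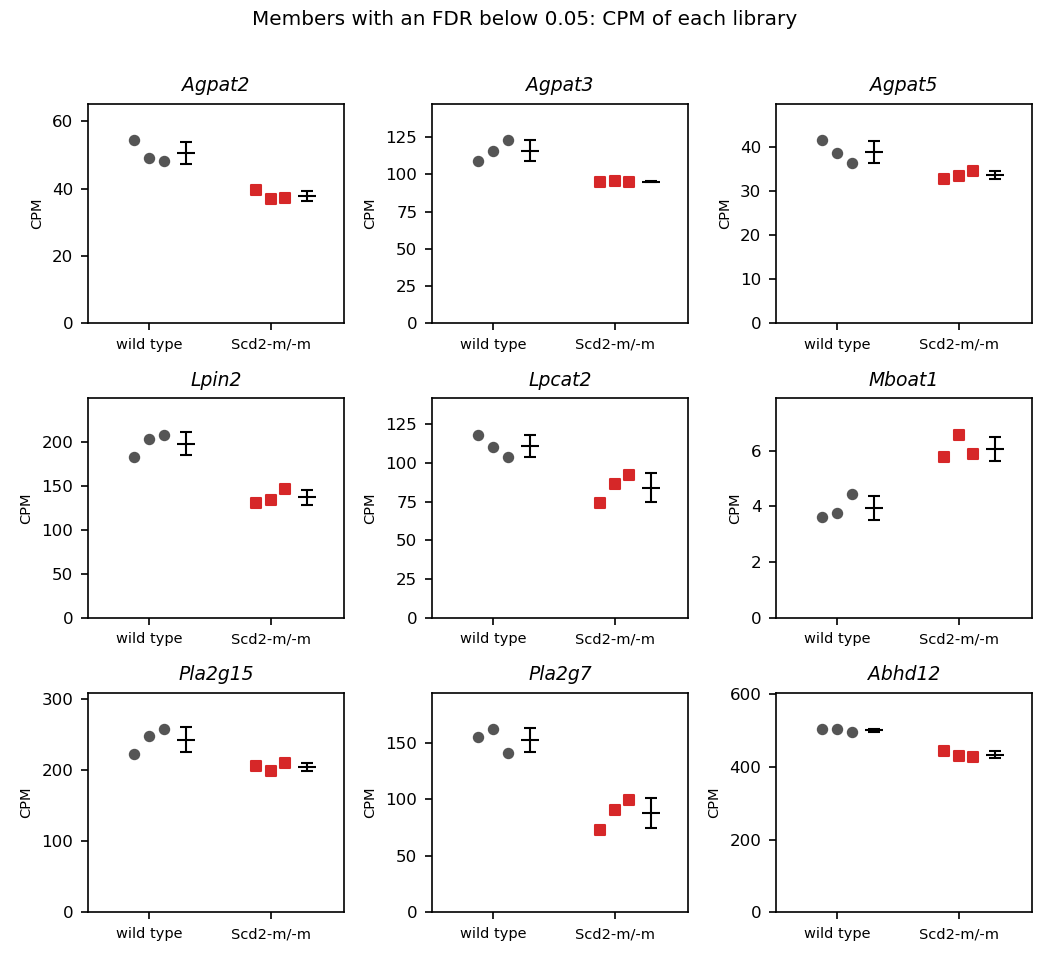
CPM of each library for the 9 called enzymes, with wild-type libraries as grey circles, *Scd2-m/-m* libraries as red squares, and the mean ± SD of 3 libraries beside them. In every panel the 3 libraries of a genotype lie on 1 side of the other 3, and *Mboat1* is the panel in which the *Scd2-m/-m* libraries lie above.

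None of the 9 genes that make the choline and ethanolamine head groups was called by edgeR, DESeq2 or limma-voom. By sign 6 of the 9 were higher, with a median log2 fold change of 0.11. At an unadjusted p below 0.05, 3 of the 9 were higher and 0 lower, beside 15.9% and 14.2% of all tested genes. The limma-voom fit with quality weights called 3 higher, and that fit called 15.7% of all genes higher. *Pcyt1a*, the rate-limiting cytidylyl transferase of phosphatidylcholine synthesis, was the most abundant of them per length, at 26.3 CPM per kb in wild-type BMDMs.

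Of this group, 3 genes were nearest to the threshold. *Cept1*, the choline and ethanolamine phosphotransferase of the last step, had a log2 fold change of 0.20 (SE 0.0675, FDR = 0.0567, edgeR), with 61.9 to 67.8 CPM in wild-type, against 69.9 to 80.6 CPM in *Scd2-m/-m* libraries. It passed in 8 of 16 alternative settings, among them upper-quartile scaling (FDR = 0.0436), each other filter on low counts (FDR = 0.0352 to 0.0496) and leaving out *Scd2-m/-m* replicate 1 (FDR = 0.0206, all edgeR), and its FDR reached 0.248 with another library left out. Its exons overlap on the opposite strand those of *Dram2*, which had 86.0 CPM in wild-type, against 115 CPM in *Scd2-m/-m* libraries, so the value of *Cept1* is uncertain. *Pcyt1a* was at 0.17 (SE 0.0635, FDR = 0.0822, edgeR) and *Etnk1*, an ethanolamine kinase, at 0.18 (SE 0.0706, FDR = 0.0973, edgeR). Both passed without wild-type replicate 3, at an FDR of 0.0275 and 0.0156 (edgeR).

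The other genes of the group were farther from a call. *Chka* and *Chkb*, the choline kinases, had log2 fold changes of 0.12 (FDR = 0.262, edgeR) and 0.11 (FDR = 0.264), each with libraries that did not overlap, and *Chpt1*, a cholinephosphotransferase, 0.0924 (FDR = 0.524). *Pcyt2*, the cytidylyl transferase of the ethanolamine branch, was at −0.095 (FDR = 0.466, edgeR), and *Pisd*, the mitochondrial phosphatidylserine decarboxylase, at −0.0744 (FDR = 0.459), although *Pisd* has near-identical copies in the mouse genome that could share its reads. *Pemt* had 1.51, 1.26 and 1.30 CPM in wild-type, against 1.2, 1.17 and 0.998 CPM in *Scd2-m/-m* replicates 1 to 3. These values did not overlap but differed little, with a log2 fold change of −0.27 (SE 0.22, FDR = 0.444, edgeR).

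Neither phosphatidylserine synthase was called by edgeR, DESeq2 or limma-voom, and neither reached an unadjusted p below 0.05. *Ptdss1*, which starts from phosphatidylcholine, had a log2 fold change of −0.0587 (FDR = 0.551, edgeR). *Ptdss2*, which starts from phosphatidylethanolamine, had 31.2, 29.7 and 32.4 CPM in wild-type, against 34.1, 34.4 and 33.5 CPM in *Scd2-m/-m* replicates 1 to 3. The *Scd2-m/-m* libraries were all above wild type by a small margin, with a log2 fold change of 0.13 (SE 0.0638, FDR = 0.191, edgeR), which passed only in limma-voom with quality weights (FDR = 0.0321).

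The 3 genes on the way to phosphatidylglycerol and cardiolipin, the lipid of mitochondrial membranes, were not called by edgeR, DESeq2 or limma-voom, with or without quality weights, and 1 was lower at an unadjusted p below 0.05. That gene was *Pgs1*, the phosphatidylglycerophosphate synthase, with 54.9, 49.2 and 51.3 CPM in wild-type, against 46.9, 47.8 and 44.8 CPM in *Scd2-m/-m* replicates 1 to 3. The genotypes did not overlap, and the log2 fold change was −0.16 (SE 0.0641, FDR = 0.112, edgeR). *Cds2*, which makes CDP-diacylglycerol, was at 0.0682 (FDR = 0.491, edgeR) and *Crls1*, the cardiolipin synthase, at 0.0737 (FDR = 0.584).

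Of the 7 phospholipases and lysophospholipases, 3 were called and all 3 were lower (42.9%, beside 7.84% of all genes). They are the 3 most abundant members per length in wild-type BMDMs. *Pla2g7* (ENSMUSG00000023913, chr17:43568098-43612201), the secreted hydrolase of platelet-activating factor and oxidized phospholipids, had the largest change of the 38 tested members. It had 155, 162 and 141 CPM in wild-type, against 73.2, 90.6 and 99.4 CPM in *Scd2-m/-m* replicates 1 to 3. The gap between the genotypes was wider than the spread within either. The mean fell from 153 ± 10.6 to 87.7 ± 13.4 CPM (SD, n = 3), 57.4% of its level in wild type, with a log2 fold change of −0.80 (SE 0.10, FDR = 0.000312, edgeR) that lay between −0.90 and −0.69 with 1 library left out.

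*Pla2g15* (ENSMUSG00000031903, chr8:106150399-106164715), the lysosomal phospholipase A2 of macrophages, had 223, 248 and 257 CPM in wild-type, against 205, 199 and 210 CPM in *Scd2-m/-m* replicates 1 to 3. Wild-type replicate 1 was the library closest to the *Scd2-m/-m* values, without overlap. The means were 243 ± 17.6 and 205 ± 5.17 CPM (SD, n = 3), for a log2 fold change of −0.25 (SE 0.064, FDR = 0.0163, edgeR). The call was lost without wild-type replicate 2 (FDR = 0.0924, edgeR), wild-type replicate 3 (FDR = 0.0603) or *Scd2-m/-m* replicate 2 (FDR = 0.104).

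*Abhd12* (ENSMUSG00000032046, chr2:150832493-150904741), the main hydrolase of lysophosphatidylserine, whose loss causes a neurodegenerative disease in people, had 503, 503 and 495 CPM in wild-type, against 444, 429 and 426 CPM in *Scd2-m/-m* replicates 1 to 3. Both genotypes were tight, with means of 500 ± 4.76 and 433 ± 9.47 CPM (SD, n = 3). The log2 fold change was −0.21 (SE 0.0572, FDR = 0.0225, edgeR). It stayed between −0.23 and −0.20 with 1 library left out, but the call was lost without wild-type replicate 2 (FDR = 0.107), *Scd2-m/-m* replicate 2 (FDR = 0.119) or *Scd2-m/-m* replicate 3 (FDR = 0.0508).

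The other 4 members of this group were positive by sign and uncalled. *Pla2g4a*, the cytosolic phospholipase A2 that releases arachidonic acid, had 7.49, 6.83 and 5.69 CPM in wild-type, against 7.87, 7.52 and 9.08 CPM in *Scd2-m/-m* replicates 1 to 3. The lowest *Scd2-m/-m* value lay just above the highest wild-type value, and the log2 fold change was 0.29 (SE 0.12, FDR = 0.131, edgeR). The calcium-independent enzymes *Pla2g6* (0.0602, FDR = 0.693, edgeR), *Pnpla8* (0.0893, FDR = 0.498) and *Pnpla6* (0.12, FDR = 0.299), the last a lysophospholipase also known as neuropathy target esterase, had overlapping libraries.

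Over the 38 tested members, the libraries of the genotypes did not overlap for 20 (52.6%), 12 lower and 8 higher in *Scd2-m/-m* libraries, beside 34.9% of all tested genes. By sign of the log2 fold change alone 22 were negative and 16 positive. All 10 tested members from glycerol-3-phosphate to triacylglycerol had a negative log2 fold change. Genes of the same steps that are not members did not all share this sign. Of the glycerol-3-phosphate acyltransferases among these, *Gpat2* was at 0.55 (FDR = 0.36, edgeR), *Gpat3* at 0.43 (FDR = 0.329) and *Gpat4* at −0.16 (FDR = 0.087). *Gpat4* had a mean of 65.3 CPM in wild-type libraries and did not overlap between genotypes, while *Gpat2* and *Gpat3* had only 0.285 and 0.735 CPM. The phosphatidic acid phosphatases *Plpp1*, *Plpp2* and *Plpp3* were at 0.00275, 0.0716 and 0.0529, with 1.77, 33.3 and 1.98 CPM in wild-type libraries. The one-sided split describes the chosen members. The genes named here that differed in sign were near 0 or had few counts. So were the members *Dgat1* (−0.00434) and *Dgat2* (0.789 CPM in wild-type libraries). Of all 14778 tested genes, 7291 had a negative log2 fold change. *Gpat4* passed without *Scd2-m/-m* replicate 1 (FDR = 0.0291, edgeR). The *Gpat* and *Plpp* genes fall outside the rule for named genes and were picked with their values known. Of the 10 members, the sign of *Lpin1* and *Dgat1* depended on the libraries or the scaling.

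Ratios of members within a library do not depend on its depth. Of 12 pairs of related enzymes set side by side, the log2 ratio did not overlap between genotypes for 3, each at an exact permutation p of 0.1 (two-sided), the smallest that 3 libraries against 3 allow, and an adjusted p of 0.4 over the 12 pairs. This test therefore cannot place any pair past 0.05. *Agpat1* to *Agpat2* went from 1.6 ± 0.00748 to 1.89 ± 0.13 on the log2 scale (SD, n = 3), *Mboat1* to *Mboat7* from −4.90 ± 0.15 to −4.17 ± 0.15, and *Ptdss1* to *Ptdss2* from 1.04 ± 0.12 to 0.85 ± 0.0301.

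For the other 9 pairs the libraries overlapped. The difference in the log2 ratio was 0.0169 for *Chka* to *Chkb* and 0.0328 for *Pnpla6* to *Pnpla8*, the smallest of the 12. It was 0.27 for *Pcyt1a* to *Pcyt2*, the choline against the ethanolamine cytidylyl transferase, and 0.35 for *Lpin1* to *Lpin2*. For *Dgat1* to *Dgat2* the wild-type libraries alone spanned 4.02 to 6.14, and *Dgat2* had between 12 and 54 counts per library.

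**Figure D4:**
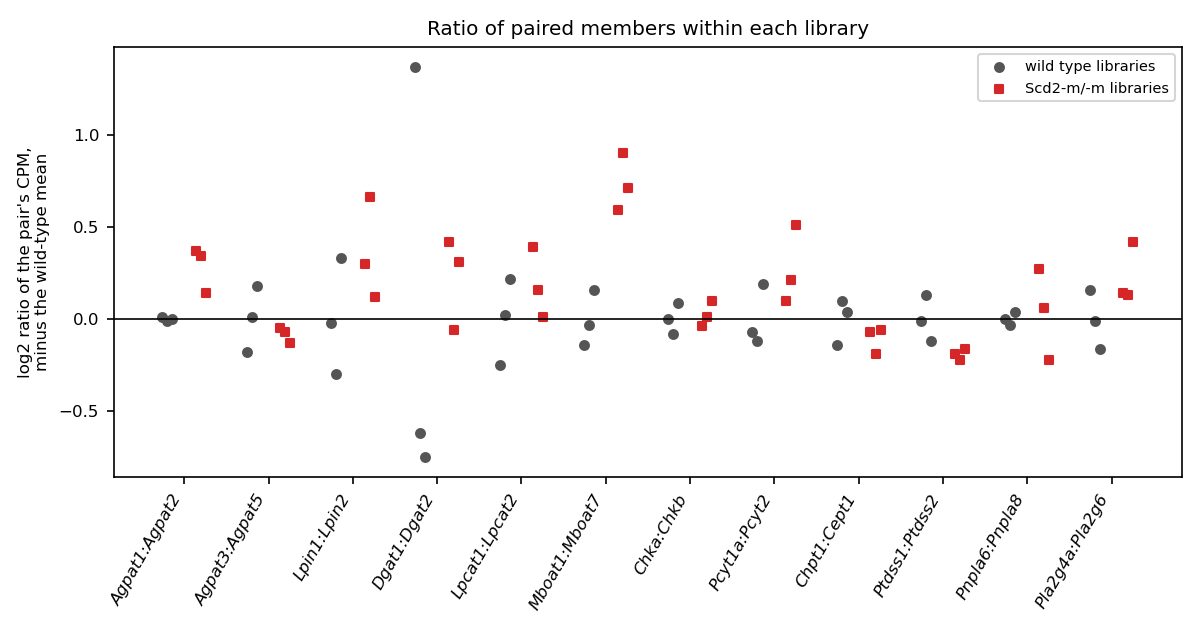
Log2 ratio of the CPM of each pair in each library, minus the mean of the 3 wild-type libraries, with wild-type libraries as grey circles and *Scd2-m/-m* libraries as red squares. The *Scd2-m/-m* libraries lie apart from the wild-type libraries for *Agpat1* to *Agpat2*, *Mboat1* to *Mboat7* and *Ptdss1* to *Ptdss2*, and overlap them for the other 9 pairs.

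The rest of the pathway was described with 5 lists of 84 further genes, of which 69 were tested. Of these, 5 were called higher (7.25%, beside 9.65% of all genes) and 3 lower (4.35%, beside 7.84%). Unlike among the members, the share of lower calls was below that of all genes. The median log2 fold change of the 69 was 0.0716, against 0.00387 over all tested genes. Among other synthesis and remodelling enzymes 1 of 20 was called (5%, beside 17.5% of all genes). That gene was *Pcyt1b*, the second form of the phosphatidylcholine cytidylyl transferase. It rose from 1.91 ± 0.571 to 4.04 ± 0.393 CPM (SD, n = 3), for a log2 fold change of 1.07 (SE 0.20, FDR = 0.00196, edgeR). *Lpcat3*, the main lysophosphatidylcholine acyltransferase of macrophages, had a log2 fold change of 0.0636 (FDR = 0.637, edgeR), a value picked outside the rule for named genes.

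Of 6 tested genes for choline and ethanolamine entry, 2 were called higher (33.3%) and 1 lower (16.7%), beside 9.65% and 7.84% of all genes. *Slc44a2*, a choline transporter of the plasma and mitochondrial membranes, rose from 79.3 ± 3.15 to 112 ± 4.77 CPM (log2 fold change 0.50, SE 0.0601, FDR = 6.54e-05, edgeR), and *Flvcr1*, a choline and heme transporter, rose from 57.5 ± 3.57 to 68.3 ± 5.57 CPM (0.25, FDR = 0.028). *Slc44a1*, the related choline transporter, fell from 147 ± 8.57 to 118 ± 6.34 CPM (log2 fold change −0.32, FDR = 0.00355, edgeR). *Slc44a1* and *Slc44a2* thus moved in opposite directions, each called with any 1 library left out. The *Flvcr1* call was lost without wild-type replicate 2 (FDR = 0.111), wild-type replicate 3 (FDR = 0.101), *Scd2-m/-m* replicate 2 (FDR = 0.0834) or replicate 3 (FDR = 0.102).

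The other lists held 4 calls, in 1 of 11 (9.09%), 2 of 8 (25%) and 1 of 24 genes (4.17%), beside 17.5% of all genes. *Acsl5*, which activates fatty acids to acyl-CoA, was the single call of 11 acyl-CoA synthetases and binding proteins, at 93.2 ± 8.68 and 75.8 ± 3.48 CPM (log2 fold change −0.30, FDR = 0.011, edgeR), lost without wild-type replicate 2 (FDR = 0.0555) or *Scd2-m/-m* replicate 2 (FDR = 0.0866). Of 8 ether lipid enzymes, *Tmem86b*, the lysoplasmalogenase, was lower (−0.54, FDR = 0.0146, edgeR), lost without wild-type replicate 2 (FDR = 0.0739) or *Scd2-m/-m* replicate 3 (FDR = 0.0568), and *Tmem189*, the plasmalogen desaturase, was higher (0.23, FDR = 0.0494). The *Tmem189* call held only without wild-type replicate 1, with an FDR of up to 0.236 when any of the other 5 was left out. *Pla2g16*, an adipose phospholipase, was the single call of 24 other phospholipases and lysophospholipases, higher at 0.40 (FDR = 0.029, edgeR), and its call was lost without wild-type replicate 2 (FDR = 0.142), wild-type replicate 3 (FDR = 0.0881), *Scd2-m/-m* replicate 2 (FDR = 0.123) or replicate 3 (FDR = 0.0639).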

How the data were processed

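Poly(A)-selected RNA of 3 wild-type and 3 *Scd2-m/-m* BMDM samples was sequenced. The authors aligned reads with STAR to the mouse Ensembl primary assembly and deposited whole-number counts per gene, not normalized. The sources used here name no counting tool and do not say whether strand was used. Between 60.9% and 64.9% of counts from 1 to 20 were even in each library, so halved counts were an alternative. The table's 276 repeated entries were removed. A deposited table of the authors' own comparison (fold changes, p-values, log2 CPM) was not used.

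Coordinates and exon lengths come from GENCODE (GRCm38). Genes were filtered with filterByExpr and tested with glmQLFit (robust) and glmQLFTest in edgeR 4.0.16 (limma 3.58.1, R 4.3.3) on all 6 libraries, with genotype as the only term. Alternatives were RLE and upper-quartile scaling, DESeq2 1.42.0, limma-voom, limma-voom with sample quality weights, other filters and FDR thresholds, the replicate number as a block, and leaving out each library.

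Members, lists and pairs were chosen with earlier results of these data known. Every member is named. Called members get each library's CPM, as does the uncalled member of each step with the largest change. Other enzymes named are the up to 2 called higher and 2 called lower per list with the smallest FDR. Sequences are shown for called members of 1 family.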

Additional observations from a re-analysis of the deposited data

How the results depend on the processing

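Over the 38 members and their alternatives, 552 values kept direction and side of the threshold, 29 passed it only in the alternative, 17 no longer passed and 9 reversed. The reversals were *Lpin1*, at 0.0672 with limma-voom with quality weights and 0.031 without wild-type replicate 3, *Lpgat1*, at −0.0202 without *Scd2-m/-m* replicate 3, and *Dgat1*, at 0.00479 with upper-quartile scaling, 0.00125 with 10 counts in every library, 0.00344 with 1 CPM in 3 libraries, 0.000997 with halved counts, 0.0409 without wild-type replicate 2 and 0.0264 without *Scd2-m/-m* replicate 3. With a library left out these genes ranged from −0.34 to 0.031, from −0.0202 to 0.15 and from −0.0322 to 0.0409. Instead of 1 member called higher there were 2 with upper-quartile scaling, with no filter beyond 1 count, with 10 counts in every library, with 1 CPM in 3 libraries and with halved counts, 4 at an FDR below 0.1, 5 with quality weights, and 1 to 3 with a library left out. Instead of 8 called lower there were 7 with upper-quartile scaling, limma-voom, 10 counts in every library and halved counts, 9 with RLE scaling, 10 with DESeq2, quality weights and no filter beyond 1 count, 5 at an FDR below 0.01, 11 at an FDR below 0.1, and 5 to 8 with a library left out. Of the listed other enzymes, quality weights, which called 30.5% of all tested genes instead of 17.5%, called 13 higher and 7 lower of 69, and leaving out a library gave 2 to 8 higher and 1 to 6 lower. *Scd2* passed at −0.62 with limma-voom, −0.82 with quality weights and −0.83 without *Scd2-m/-m* replicate 1, and ranged from −0.83 to −0.48 with a library left out. Pairs whose ratio did not overlap numbered 3 to 7 with a library left out, a count that can only stay or rise when a library is removed. Where no value shows it, the cause was not tested.

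The labels do not say whether libraries of the same replicate number are paired, and the correlations between them do not decide it. The correlation of deviations from the group means was 0.053, −0.02 and 0.04 between libraries of numbers 1, 2 and 3. It was −0.074 to 0.041 between libraries of different numbers, and 3 of 6 libraries correlated best with their own number. With the replicate number as a block 4 members were called higher and 10 lower, and 2974 genes in all instead of 2585.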
